A study of Mus musculus with 8 samples.

Results

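The vitamin B12 uptake and processing genes comprised 8 mouse genes, chosen by name from the known route of cobalamin (B12) through the cell: Tcn2, Cd320, Lmbrd1, Abcd4, Mmachc, Mmadhc, Mmaa and Mmab. All 8 were among the 55487 genes of the counts table and among the 19392 genes with enough reads to be tested. Their levels were read from bulk RNA-seq of polyadenylated RNA, in 8 libraries made from mouse embryonic fibroblasts (MEFs). The MEFs were of the C57BL/6 background and carried Rosa26-rtTA (+/T) and Tet-O-OSKM (+/T), so that doxycycline switched on Oct4, Sox2, Klf4 and Myc in every library. MEFs of 2 embryos, named 61.5 and 61.3, were each given doxycycline for 72 h with 1 of 4 additions. These were 2 µM B12 together with 2 µM PF-9366, an inhibitor of MAT2A (B12 MATi), 2 µM B12 alone (B12), 10 µM NSC636819, an inhibitor of the histone demethylases KDM4A/B (NSC), or 100 µM S-adenosylmethionine (SAM). Each treatment therefore had n = 2 libraries, 1 per embryo. No library was labelled as grown without B12 and none had doxycycline alone, so the 4 libraries given extra B12 (B12 MATi and B12) were compared with the 4 that were not (NSC and SAM). Every library without extra B12 received NSC636819 or SAM, so an effect of B12 cannot be told apart from one of these compounds.

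Cobalamin circulates bound to transcobalamin, the product of Tcn2, and the complex is taken into cells by its receptor, the product of Cd320. In the lysosome transcobalamin is degraded, and the free vitamin leaves through a membrane pair, the products of Lmbrd1 and Abcd4. In the cytosol the product of Mmachc strips the upper ligand and that of Mmadhc directs the vitamin either to methionine synthase (Mtr), which makes methionine for the SAM cycle, or to the mitochondrion, where the products of Mmab and Mmaa make the adenosyl form and load it onto methylmalonyl-CoA mutase (Mmut).

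Libraries held 27498180 to 38565685 counted reads, the lowest being B12 MATi of MEF 61.5. Mitochondrial genes took 1.23% to 2.33% of reads. Fibroblast markers were abundant, with a summed level of 77620 to 111399 CPM (counts scaled to a common library size) over 12 genes, led by Col3a1, Col1a1 and Col1a2. Macrophage markers were present as well, and the sum over 17 genes was 2299 to 4730 CPM in B12 MATi, 2950 to 5318 CPM in B12, 2147 to 4214 CPM in NSC and 609 to 1874 CPM in SAM. None of these markers was at 0 in every library. In bulk RNA, fewer cells of a type and less RNA per cell cannot be told apart.

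Promoter windows of 300 bases (250 before and 50 after a transcription start, RefSeq on GRCm38.p6) were found for 5 of the 8 genes: Cd320, Lmbrd1, Mmachc, Mmaa and Mmab. They were searched on both strands for 4 motifs chosen after the sequences had been seen, none of which overlapped another in the windows shown. The motif TACANNTCC, from the site of ZNF143 and THAP11, which in human cells act with HCFC1 on the human MMACHC gene, occurred in 1 member, Mmachc, where it lay 23 to 15 bases before the start on the reverse strand. It also occurred in the promoter of Mtr, which is no member, and in 4.43% of 32851 RefSeq mouse promoter windows. The CCAAT box occurred 5 times in Mmab and once in a second window of Cd320, and 37.4% of all windows held it. The E-box CACGTG (7.15% of all windows) and the sterol element TCACNCCAC (1.24%) occurred in none of the members' windows. Such a match is a string of letters and was not tested as a binding site. Shown here 5′ to 3′ are Mmachc and Mtr, which share the ZNF143 and THAP11 letters, Mmab with its CCAAT boxes, and Cd320, the only member called between treatments. Capitals mark TACANNTCC or CCAAT on either strand.
Mmachc, chr4:116708336-116708635, minus strand: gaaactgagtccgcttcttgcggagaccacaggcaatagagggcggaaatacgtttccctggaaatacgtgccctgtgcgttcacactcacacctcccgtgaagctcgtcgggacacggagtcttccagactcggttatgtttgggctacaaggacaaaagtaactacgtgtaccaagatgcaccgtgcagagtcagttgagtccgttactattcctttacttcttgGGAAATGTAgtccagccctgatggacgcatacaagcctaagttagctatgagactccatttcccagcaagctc
Mtr, chr13:12258064-12258363, minus strand: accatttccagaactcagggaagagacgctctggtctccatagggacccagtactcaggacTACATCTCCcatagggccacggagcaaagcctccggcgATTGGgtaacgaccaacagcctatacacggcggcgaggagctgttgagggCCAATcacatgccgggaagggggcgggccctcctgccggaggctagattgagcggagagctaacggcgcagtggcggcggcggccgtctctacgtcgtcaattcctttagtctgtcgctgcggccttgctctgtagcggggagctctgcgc
Mmab, chr5:114443978-114444277, minus strand: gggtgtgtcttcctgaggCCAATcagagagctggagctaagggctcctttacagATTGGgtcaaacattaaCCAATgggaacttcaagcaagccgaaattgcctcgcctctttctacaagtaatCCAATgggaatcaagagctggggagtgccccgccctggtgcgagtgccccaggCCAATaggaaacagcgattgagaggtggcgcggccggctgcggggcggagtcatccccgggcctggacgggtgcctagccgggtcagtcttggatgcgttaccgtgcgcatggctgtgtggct
Cd320, chr17:33842841-33843140, plus strand: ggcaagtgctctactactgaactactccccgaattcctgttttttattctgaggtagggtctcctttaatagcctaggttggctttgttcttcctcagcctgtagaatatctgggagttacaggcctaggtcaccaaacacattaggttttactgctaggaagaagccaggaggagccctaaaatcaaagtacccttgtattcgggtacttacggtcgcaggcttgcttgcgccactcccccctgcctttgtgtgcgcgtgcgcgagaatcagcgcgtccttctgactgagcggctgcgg

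All 8 genes were expressed in every library, with between 269 and 3178 reads per gene and library. Per kilobase of exon, Tcn2 was highest, at 36.0 ± 4.93 CPM per kb (mean ± SD over the 8 libraries), followed by Mmadhc at 25.5 ± 1.38. Mmab averaged 9.84 ± 0.48 and Lmbrd1 7.44 ± 0.82 CPM per kb. By this measure, transcripts of the carrier and of the branch-point protein were the most abundant of the pathway. The length is that of all annotated exons of a gene together, which can exceed that of its main transcript. Mmachc and Cd320 shared the middle of the order at 4.41 ± 0.52 and 4.41 ± 0.47 CPM per kb, and Mmachc was above Cd320 in 5 of 8 libraries, so these neighbours were not separable. Abcd4 averaged 2.29 ± 0.26 and Mmaa 1.58 ± 0.08 CPM per kb. Every other pair of neighbours kept its order in 8 of 8 libraries. Each gene had the same length in all of them, so this does not test the choice of length.

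**Figure D1:**
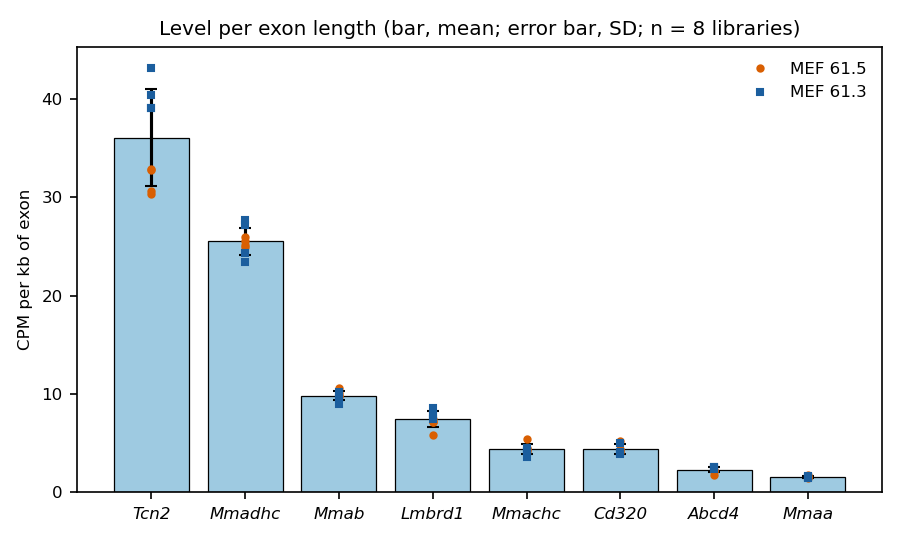
Level of each B12 gene per exon length, in CPM per kb, as the mean (bar) and SD (error bar) of 8 libraries, with points for the single libraries of MEF 61.5 (circles) and MEF 61.3 (squares). Tcn2 stands highest at 36.0 and Mmaa lowest at 1.58 CPM per kb, and in Tcn2 the points of the 2 embryos form separate clusters.

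The question put to these genes was whether their mRNA differed between MEFs given extra B12 and MEFs given SAM or NSC. Over the pooled comparison of B12 MATi and B12 with NSC and SAM, none of the 8 was called by edgeR at an adjusted p below 0.05, where 8.62% of all genes tested were called. At an unadjusted p below 0.05 there were 2 of 8, Cd320 and Mmadhc, and 21.6% of all genes passed that level. DESeq2 called 0. The fold changes were small, from −0.04 for Mmaa to 0.18 for Cd320 on the log2 scale. Their median was 0.04, and the median over all genes was 0.0026. The 95% intervals of the 8 genes together spanned 0.867-fold to 1.24-fold, so differences beyond that range were outside the interval of every member.

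**Figure D2:**
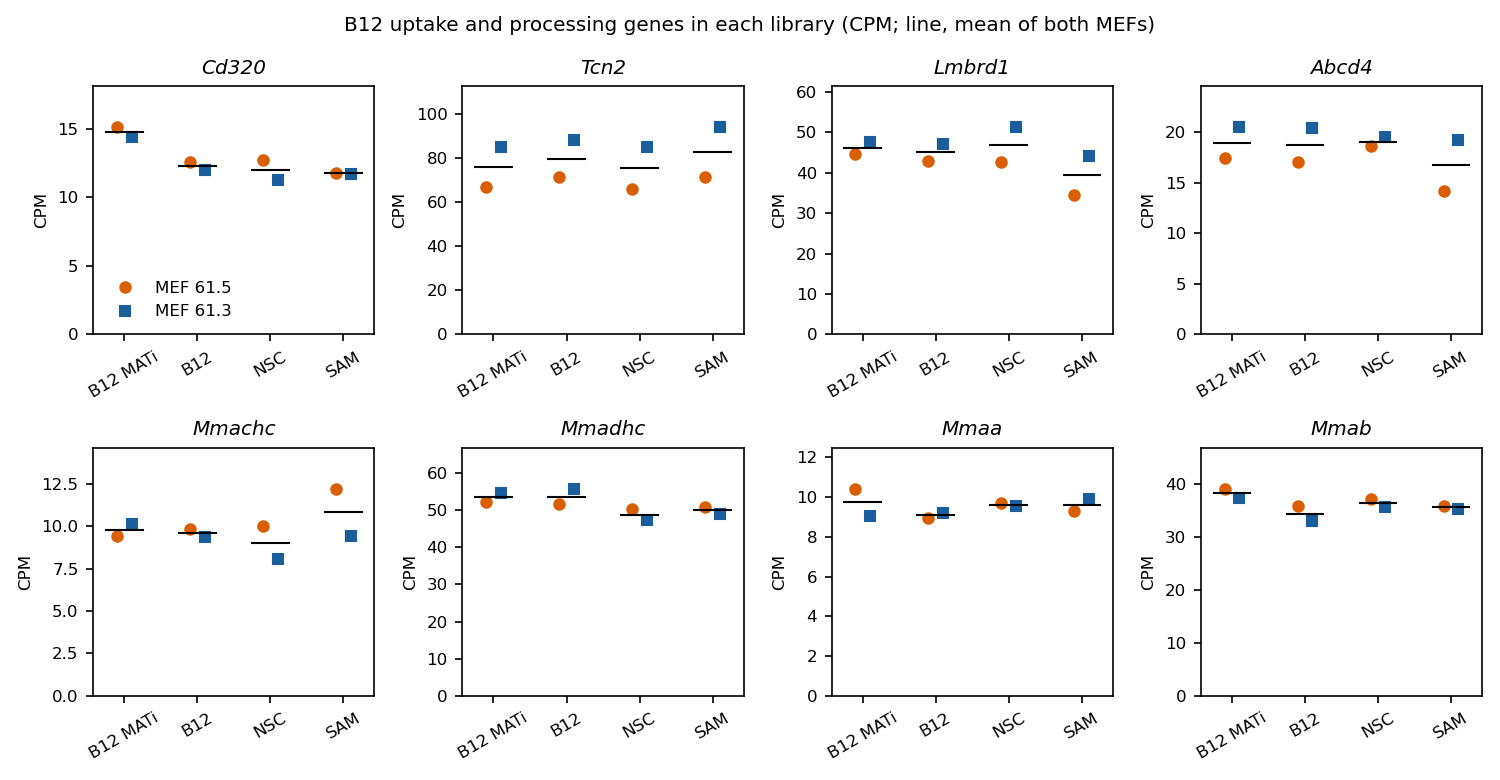
CPM of each B12 gene by treatment (horizontal axis) in MEF 61.5 (circles) and MEF 61.3 (squares), with a line at the mean of the 2 libraries and vertical axes that start at 0. Cd320 is highest in both B12 MATi libraries (15.1 and 14.4 CPM), whereas Tcn2 differs by embryo within each treatment.

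Tcn2 encodes the plasma carrier (ENSMUSG00000020432, chromosome 11, 3917192 to 3932159, GRCm38). In MEF 61.5 and MEF 61.3 it was at 66.7 and 85.1 CPM in B12 MATi, 71.5 and 88.0 CPM in B12, 66.1 and 85.1 CPM in NSC, and 71.3 and 93.9 CPM in SAM. The libraries ran from 66.7 to 88.0 CPM with extra B12 and from 66.1 to 93.9 CPM without, so the groups overlapped, and within each treatment MEF 61.5 was the lower. The averages were 77.8 ± 10.3 CPM with extra B12 and 79.1 ± 12.7 CPM without (SD, n = 4 each), a log2 fold change of −0.02 ± 0.04 (SE; edgeR adjusted p = 0.847) with a 95% interval of −0.11 to 0.07.

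Cd320 encodes the receptor for the transcobalamin complex (ENSMUSG00000002308, chromosome 17, 33843091 to 33849774). Its level was, in MEF 61.5 and MEF 61.3, 15.12 and 14.38 CPM in B12 MATi, 12.56 and 11.98 CPM in B12, 12.76 and 11.28 CPM in NSC, and 11.82 and 11.70 CPM in SAM. The B12 MATi libraries were the highest pair, while the B12 libraries lay among those of NSC. The averages were 13.5 ± 1.48 CPM with extra B12 and 11.9 ± 0.62 CPM without (SD, n = 4 each), and the groups overlapped. The log2 fold change was 0.18 ± 0.06 (SE; interval 0.05 to 0.31; edgeR adjusted p = 0.0987). It had the same sign within each embryo, 0.17 in MEF 61.5 and 0.19 in MEF 61.3.

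Treatment by treatment, Cd320 was the only member called. It was higher in B12 MATi than in SAM, at 14.7 ± 0.52 CPM against 11.8 ± 0.08 CPM (SD, n = 2 each), by a log2 fold change of 0.33 ± 0.08 (SE; edgeR adjusted p = 0.0363), or 1.25-fold. Against that 1 member of 8, 8.17% of all genes were called in this comparison, and 2 members (Cd320 and Lmbrd1) and 21% of all genes had an unadjusted p below 0.05. In the same comparison 15 of 17 macrophage markers were higher, with a median log2 fold change of 1.19, and 4 of 6 epithelial markers tested were lower, with a median of −1.98. Their part in the Cd320 difference was not tested. The call was lost with DESeq2 (adjusted p = 0.216), without the term for embryo (0.438), and in edgeR fits without either B12 MATi library, either SAM library or the NSC library of MEF 61.3 (0.0543 to 0.265), while the fold change stayed between 0.28 and 0.37. Against NSC the difference was 0.30 ± 0.08 (adjusted p = 0.0784), and fitted on those 4 libraries alone it was called (adjusted p = 0.0377). Against B12 alone it was 0.27 ± 0.08 (unadjusted p = 0.0088, adjusted p = 0.479), with nearly equal values in both embryos, 0.27 in MEF 61.5 and 0.26 in MEF 61.3.

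B12 alone, in contrast, differed little from the libraries without extra B12 in its Cd320 level. The log2 fold change of B12 was 0.06 ± 0.08 against SAM (interval −0.12 to 0.25) and 0.03 ± 0.08 against NSC (interval −0.15 to 0.21). NSC and SAM differed by 0.03 ± 0.08. B12 MATi and B12 both received the vitamin and differ in their labels by PF-9366. Cd320 was not called between them, and the cause of its level in B12 MATi was not tested. The pooled Cd320 value averaged a larger B12 MATi estimate and a smaller B12 estimate.

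**Figure D3:**
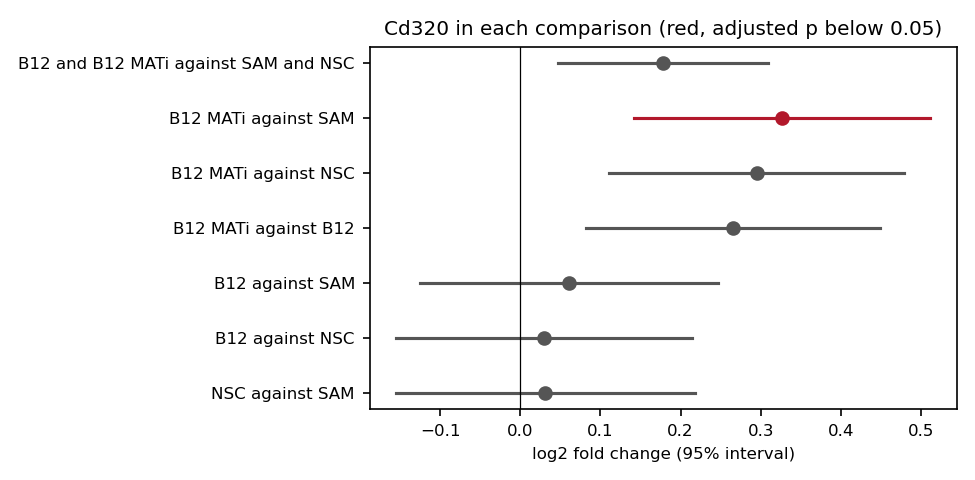
Log2 fold change of Cd320 (horizontal axis) in the pooled comparison and in each pair of treatments (rows), as edgeR estimates (points) with 95% intervals (lines). The 3 rows with B12 MATi alone on top lie at 0.27 to 0.33, of which only that against SAM (red) has an adjusted p below 0.05, and the rows with B12 alone on top lie at 0.03 and 0.06.

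Lmbrd1 (ENSMUSG00000073725, chromosome 1, 24678630 to 24766301) and Abcd4 (ENSMUSG00000021240, chromosome 12, 84601464 to 84617413) encode the membrane pair that lets cobalamin out of the lysosome. In MEF 61.5 and MEF 61.3, Lmbrd1 was at 44.5 and 47.6 CPM in B12 MATi, 42.9 and 47.2 CPM in B12, 42.7 and 51.2 CPM in NSC, and 34.5 and 44.2 CPM in SAM. In the same order of embryos, Abcd4 was at 17.4 and 20.5 CPM in B12 MATi, 17.1 and 20.4 CPM in B12, 18.6 and 19.5 CPM in NSC, and 14.2 and 19.2 CPM in SAM. Both genes were lowest in the SAM library of MEF 61.5, and with and without extra B12 their libraries overlapped. The pooled log2 fold changes were 0.09 ± 0.05 for Lmbrd1 (SE; interval −0.03 to 0.20; edgeR adjusted p = 0.364) and 0.08 ± 0.06 for Abcd4 (interval −0.06 to 0.22; adjusted p = 0.554). Within MEF 61.5 and MEF 61.3 the log2 difference was 0.19 and −0.006 for Lmbrd1, and 0.08 and 0.08 for Abcd4. With a library left out the pooled values ran from 0.04 to 0.14 for Lmbrd1, lowest without SAM of MEF 61.5. For Abcd4 they ran from 0.01 to 0.14, lowest without NSC of MEF 61.3 and at 0.02 without SAM of MEF 61.5.

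Against SAM, Lmbrd1 had similar estimates for the other 3 treatments, none of them called. They were 0.23 ± 0.07 for B12 MATi (SE; edgeR adjusted p = 0.0886), 0.20 ± 0.07 for B12 (0.149) and 0.26 ± 0.07 for NSC (0.0529). These share the SAM libraries. None of the 3 was called with DESeq2 (adjusted p = 0.133 to 0.400) or in edgeR without the term for embryo (0.545 to 0.753). The NSC difference stood near the threshold. In edgeR it was called with DESeq2 size factors (adjusted p = 0.0498), without a filter on low counts (0.0151) and on those 4 libraries alone (0.0111). It was also called with either B12 library or the SAM library of MEF 61.3 left out. With either B12 MATi library, either NSC library or the SAM library of MEF 61.5 left out it was not called, at 0.16 to 0.29. B12 MATi against SAM was called in edgeR on its 4 libraries alone (adjusted p = 0.0202) and without either B12 library. With any other library left out it was not called, at 0.14 to 0.33. Without the SAM library of MEF 61.5 the 3 estimates were 0.14 for B12 MATi, 0.11 for B12 and 0.16 for NSC, with adjusted p-values of 0.462 to 0.651 in edgeR. The macrophage sum was lowest in that same library, at 609 CPM, and the summed level of 13 lysosomal genes was lowest there too, at 3236 CPM. Their part in the Lmbrd1 and Abcd4 values was not tested.

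Of the 28 pairs of members, Lmbrd1 and Abcd4 had the highest positive correlation. Pearson's r of their log2 CPM was 0.90 over the 8 libraries and 0.80 after the mean of each embryo was removed, as a description, since the libraries share embryos and treatments. The next highest was that of Cd320 and Mmab, at 0.77. The largest r in size was inverse, Lmbrd1 with Mmachc, at −0.91, and −0.88 within embryos. Abcd4 with Mmachc was at −0.71, and −0.56 within embryos. Tcn2 had a positive r with Abcd4 (0.61) and Lmbrd1 (0.50) across the libraries, but within embryos these were −0.59 and −0.65.

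**Figure D4:**
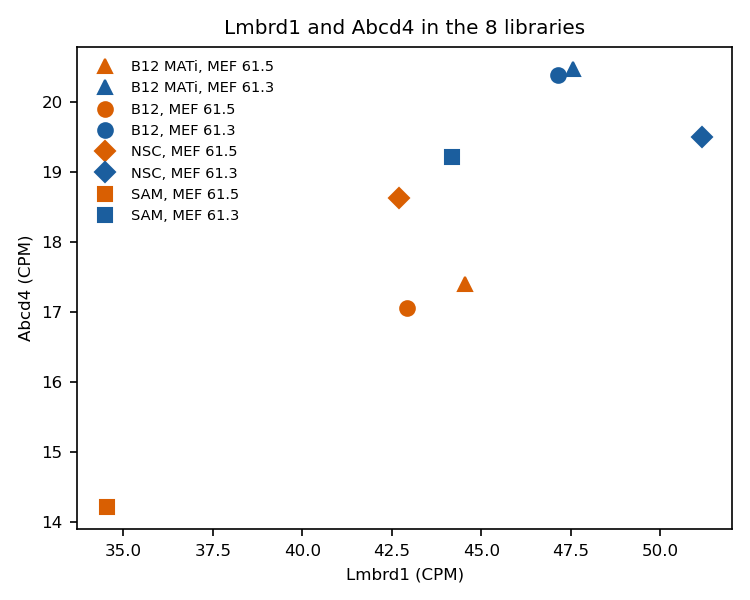
Abcd4 (vertical axis, CPM) against Lmbrd1 (horizontal axis, CPM) in the 8 libraries, with shape for treatment and colour for embryo. The axes do not start at 0. The SAM library of MEF 61.5 lies apart at 34.5 and 14.2 CPM, and the remaining libraries of MEF 61.5 lie below all those of MEF 61.3 in Abcd4.

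Mmachc (ENSMUSG00000028690, chromosome 4, 116702279 to 116708406) encodes the protein that removes the upper ligand. In MEF 61.5 and MEF 61.3 it was at 9.43 and 10.1 CPM in B12 MATi, 9.83 and 9.37 CPM in B12, 9.99 and 8.04 CPM in NSC, and 12.2 and 9.43 CPM in SAM. The libraries with extra B12 fell inside the range of those without, whose extremes were SAM of MEF 61.5 and NSC of MEF 61.3. The pooled log2 fold change was −0.02 ± 0.08 (SE; interval −0.21 to 0.16; edgeR adjusted p = 0.925). It was −0.19 in MEF 61.5 and 0.16 in MEF 61.3.

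Mmadhc (ENSMUSG00000026766, chromosome 2, 50279881 to 50296801) encodes the partner that splits the flow between cytosol and mitochondrion. In MEF 61.5 and MEF 61.3 it was at 52.2 and 54.6 CPM in B12 MATi, 51.5 and 55.6 CPM in B12, 50.2 and 47.2 CPM in NSC, and 50.7 and 49.0 CPM in SAM. All 4 libraries with extra B12 (51.5 to 55.6 CPM) were above all 4 without (47.2 to 50.7 CPM). Mmadhc was the 1 member of 8 whose groups did not overlap, which also held for 4.23% of all genes. The averages were 53.5 ± 1.98 CPM and 49.3 ± 1.53 CPM (SD, n = 4 each). The log2 fold change was 0.12 ± 0.05 (SE; interval 0.01 to 0.22), or 1.08-fold, with an unadjusted p of 0.0327 and an edgeR adjusted p of 0.180, and ran from 0.08 to 0.15 with a library left out. It was 0.04 in MEF 61.5 and 0.20 in MEF 61.3, and a difference between the embryos was not called in edgeR (adjusted p = 0.352). In each of the 4 pairs of a treatment with extra B12 and one without, the estimate was between 0.10 and 0.14. These pairs reuse the libraries of the pooled comparison.

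Mmab (ENSMUSG00000029575, chromosome 5, 114431034 to 114444060) encodes the enzyme that makes adenosylcobalamin. Mmab was, in MEF 61.5 and MEF 61.3, at 39.0 and 37.3 CPM in B12 MATi, 35.8 and 33.0 CPM in B12, 37.1 and 35.5 CPM in NSC, and 35.8 and 35.3 CPM in SAM. B12 MATi held the highest values and B12 of MEF 61.3 the lowest, so the pooled log2 fold change was 0.01 ± 0.04 (SE; edgeR adjusted p = 0.919). B12 MATi against B12 gave 0.15 ± 0.06 (interval 0.01 to 0.29; unadjusted p = 0.0353, adjusted p = 0.588). The start of Mmab lies 209 bases from that of Mvk, which is read in the opposite direction and encodes mevalonate kinase of sterol synthesis, and Pearson's r of their log2 CPM was 0.74 over the 8 libraries. Mmachc has a like neighbour, Ccdc163, at 103 bases, with an r of −0.43. These neighbours were chosen after earlier values were known, and counts were made by strand.

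Mmaa (ENSMUSG00000037022, chromosome 8, 79263598 to 79294937) encodes the protein that guards the loading of Mmut. Across MEF 61.5 and MEF 61.3 it was at 10.4 and 9.07 CPM in B12 MATi, 8.96 and 9.20 CPM in B12, 9.71 and 9.54 CPM in NSC, and 9.32 and 9.93 CPM in SAM. All 8 values lay within 1.5 CPM of each other and the groups overlapped. The pooled log2 fold change was −0.04 ± 0.07 (SE; interval −0.19 to 0.12; edgeR adjusted p = 0.833).

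In the other pairs of treatments edgeR called no member, and neither did DESeq2. For B12 against SAM, 7.71% of all genes were called, and at an unadjusted p below 0.05 there were 19.7% of all genes and 1 of 8 members, Lmbrd1. For B12 against NSC, 1.91% were called, and at the unadjusted level there were 12.4% of all genes and 0 members. For B12 MATi against NSC, 3.58% were called, and the unadjusted level was passed by 20.8% of all genes and by 1 member, Cd320. For B12 MATi against B12, 0.0877% were called, and the unadjusted level was passed by 8.12% of all genes and by 2 members, Cd320 and Mmab. NSC against SAM had 9.52% of all genes called, with 24.9% of all genes and 2 members, Lmbrd1 and Abcd4, at the unadjusted level.

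Tcn2, Lmbrd1 and Abcd4 differed between the libraries of the 2 embryos. With MEFs of 2 embryos only, embryo of origin cannot be told apart from the culture or handling of those cells. The p-values rest on the spread between libraries, not between embryos. In MEF 61.5 against MEF 61.3, edgeR called 3 of the 8 members, all lower, where 18.8% of all genes were called and 10.3% were lower. Tcn2 averaged 68.9 ± 2.91 CPM in MEF 61.5 and 88.0 ± 4.16 CPM in MEF 61.3 (SD, n = 4 each), a log2 fold change of −0.35 ± 0.04 (SE; edgeR adjusted p = 0.000135). Abcd4 averaged 16.8 ± 1.87 CPM in MEF 61.5 and 19.9 ± 0.63 CPM in MEF 61.3, a change of −0.24 ± 0.06 (adjusted p = 0.0212). The libraries of MEF 61.5 and MEF 61.3 did not overlap for these 2 of 8 members, as for 11.6% of all genes. Lmbrd1 averaged 41.2 ± 4.50 CPM in MEF 61.5 and 47.5 ± 2.87 CPM in MEF 61.3, a change of −0.21 ± 0.05 (adjusted p = 0.0159), with a small overlap.

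The Tcn2 call held in every fit that compared the embryos, whereas those of the other 2 did not. The embryos were not compared on the 4 libraries of a pair or with extra B12 and embryo as the only terms. Abcd4 was not called with DESeq2 (adjusted p = 0.0541) or in edgeR fits without either B12 MATi library or either SAM library (0.0743 to 0.0911). Lmbrd1 was not called without either SAM or either NSC library (0.0686 to 0.0797). The other 5 members changed by −0.01 to 0.17 on the log2 scale between the embryos and were not called, with the widest interval for Mmachc, −0.02 to 0.35.

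Other genes moved with the embryo as well. Of 17 macrophage markers 16 were lower in MEF 61.5 than in MEF 61.3, with a median log2 fold change of −1.09, and of 13 lysosomal genes 10 were lower and 1 was higher, with a median of −0.32. The median over all genes was 0.0053. Their part in the Tcn2, Lmbrd1 and Abcd4 differences was not tested. In B12 against SAM, 16 of 17 markers were higher, with a median of 1.42, and the log2 fold changes of the 3 members were −0.05 ± 0.06 for Tcn2, 0.20 ± 0.07 for Lmbrd1 and 0.17 ± 0.09 for Abcd4, none of them called.

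**Figure D5:**
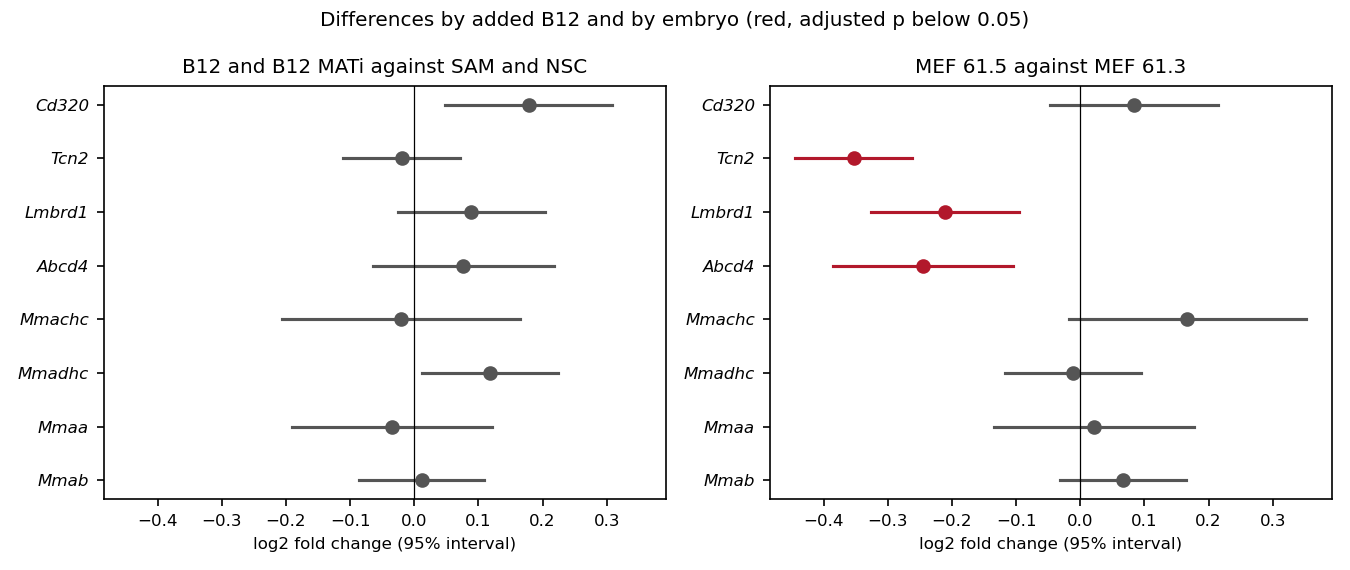
Log2 fold change (horizontal axis) of the 8 genes (rows) for B12 MATi and B12 against NSC and SAM (left) and for MEF 61.5 against MEF 61.3 (right), as edgeR estimates with 95% intervals, red where the adjusted p is below 0.05. No gene is red on the left, where values run from −0.04 to 0.18, and Tcn2, Lmbrd1 and Abcd4 are red on the right at −0.35, −0.21 and −0.24.

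Split into its sources, the variance of log2 CPM over the 8 libraries lay 91.0% between embryos for Tcn2 and 57.8% for Abcd4. For Cd320, 86.6% lay between treatments, and for Mmadhc and Mmab 68.2% each. For Mmaa 64.7% belonged to neither. Lmbrd1 had 43.3% between treatments and 45.9% between embryos, and Mmachc had 35.2% and 27.7%. With 4 treatments and 2 embryos, noise alone puts more of the variance between treatments than between embryos. The median SD of the members was 0.16 on the log2 scale, and it was 0.16 over all genes tested and 0.11 over the 10431 genes at 5 to 100 CPM. The difference of B12 MATi and B12 from NSC and SAM was not shown to vary between embryos for any member. Its interaction with embryo was called by edgeR for 0 of 8, against 0.758% of all genes. In edgeR 2 members, Mmachc (adjusted p = 0.214) and Lmbrd1 (adjusted p = 0.279), had an unadjusted p below 0.05, as did 15.1% of all genes.

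Among 10512 genes with a mean of at least 10 CPM, those most like Cd320 over the 8 libraries were Cxcl14 (Pearson's r of log2 CPM 0.98), Mocs2 (0.97) and Spsb1 (0.97). Those most like Tcn2 were Srpx (0.99), Sectm1a (0.98) and Cyp7b1 (0.98). With 8 libraries that share 2 embryos and 4 treatments, such values describe a like order of libraries and nothing more.

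Beyond the members, 14 further genes of B12 transport, use and regulation were examined, of which 12 had enough reads to be tested. The intestinal genes Amn and Cblif did not, with at most 8 and 2 reads in a library. The enzymes that use the vitamin were not called in the pooled comparison: methionine synthase Mtr changed by −0.02 ± 0.06 (SE; edgeR adjusted p = 0.859), its reductase Mtrr by 0.07 ± 0.07 (0.601) and the mutase Mmut by 0.06 ± 0.05 (0.532). Of the 12, 1 was higher and 0 were lower, with a median of −0.01. For the regulators Hcfc1, Thap11 and Zfp143, the mouse counterparts of the factors named above, which were added for the motif after their values were known, none was called and the pooled changes were −0.08 ± 0.05, −0.08 ± 0.05 and 0.01 ± 0.06.

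The gene called was Abcc1, an exporter that can carry cobalamin out of the cell among many other substrates. Abcc1 was, in MEF 61.5 and MEF 61.3, at 69.1 and 99.1 CPM in B12 MATi, 83.1 and 111 CPM in B12, 68.7 and 98.9 CPM in NSC, and 56.8 and 80.9 CPM in SAM. Within each embryo B12 was highest, SAM lowest, and B12 MATi close to NSC. The pooled log2 fold change was 0.25 ± 0.04 (SE; edgeR adjusted p = 0.00314). By pairs it was higher than in SAM in B12 MATi (0.29 ± 0.06, 0.0128), in B12 (0.50 ± 0.06, 0.000245) and in NSC (0.28 ± 0.06, 0.0140). It was not called in B12 MATi against NSC (0.01 ± 0.06, 0.971) or in B12 against NSC (0.22 ± 0.06, 0.108). Abcc1 was also lower in MEF 61.5 than in MEF 61.3, by −0.49 ± 0.04 (adjusted p = 1.28e-05). Its order of treatments was that of the macrophage sum within MEF 61.3 and MEF 61.5, and the part of those cells in it was not tested.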

How the data were processed

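Polyadenylated RNA of 8 libraries was analysed. Raw counts per gene were deposited. The authors had made them with STAR 2.5.2b (genome mm10, GRCm38) and reverse-stranded featureCounts on Ensembl genes, adding technical replicates together. The handling of reads that match several genes is not given in the sources used here. Symbols, coordinates and exon lengths came from GENCODE for the same build, with Mmut and Cblif matched by their older symbols Mut and Gif.

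Tests used edgeR 4.0.16 under R 4.3.3 (filterByExpr, minimum count 10, TMM factors, quasi-likelihood test) with treatment and embryo as terms in all 8 libraries. P-values were adjusted by Benjamini-Hochberg over 19392 genes and called below 0.05. CPM used TMM-scaled totals, and log2 CPM a prior count of 2. The script was tested on simulated data. The embryo entered as a block because libraries of a MEF share an embryo, and their deviations correlated at 0.424 to 0.559. Library pairs differed beyond sampling noise. The pooled contrast weighted treatments equally. Alternatives were DESeq2 1.42.0, its size factors, 2 other filters, no block, fewer libraries and each library left out. Members, lists and alternatives were chosen with earlier results of these data known. The members and the genes Mtr, Mtrr and Mmut were always named, with other B12 genes where called, the 3 genes most like Cd320 and Tcn2, and the highest markers of a list.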

Additional observations from a re-analysis of the deposited data

Results flagged for a closer look

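Each member's CPM was examined within the 4 libraries with extra B12 and the 4 without, 16 groups in all, for a library far from the rest, and 2 groups held one. For 4 independent values of the same distribution, chance alone gives about 1 in 20 such groups. Each group here mixes 2 treatments and 2 embryos, so that rate need not hold. Mmaa in B12 MATi of MEF 61.5 was at 10.4 CPM, above the other libraries with extra B12 (8.96 to 9.20 CPM), and the gap to the nearest made up 0.836 of the group's range. Abcd4 in SAM of MEF 61.5 was at 14.2 CPM, below the other libraries without extra B12 (18.6 to 19.5 CPM), with a gap of 0.837 of the range. Both lay just past the critical value of Dixon's test for 4 values.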

How the results depend on the processing

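Of 880 alternative fold changes of members, 809 kept direction and side of the threshold, 16 lost a call, 10 gained one and 45 changed sign, none of these called. The pooled count of members called stayed at 0 in every alternative. For B12 MATi against SAM, the count of 1 became 0 with DESeq2 and 0 with no replicate block, 2 (Cd320 and Lmbrd1) on the 4 libraries of the pair, and 0 to 2 with a library left out. For B12 MATi against NSC it was 1 on the 4 libraries of the pair. For NSC against SAM it was 1 with DESeq2 size factors, with no filter and on the 4 libraries, and 0 to 1 with a library left out. Between the embryos it was 1 to 3, and 1 (Tcn2) without either SAM library. Where the estimate is near 0, its sign turned: Mmaa in NSC against SAM was −0.00432 with DESeq2 size factors, −0.00476 with DESeq2 and −0.0043 on the 4 libraries. With a library left out the log2 fold change had these ranges. In NSC against SAM it ran from −0.0766 to 0.0761 for Mmaa, −0.0349 to 0.0887 for Cd320, −0.10 to 0.0279 for Mmadhc and −0.000262 to 0.0603 for Mmab. In B12 MATi against B12 it ran from −0.0447 to 0.11 for Lmbrd1, −0.0705 to 0.0650 for Mmadhc, −0.15 to 0.20 for Mmachc and −0.0183 to 0.21 for Mmaa. In MEF 61.5 against MEF 61.3 it ran from −0.0450 to 0.0228 for Mmadhc and −0.0343 to 0.0604 for Mmaa. In the pooled comparison it ran from −0.11 to 0.0663 for Mmachc, −0.00564 to 0.0286 for Mmab and −0.0930 to 0.0202 for Mmaa. In B12 MATi against NSC it ran from −0.0992 to 0.0515 for Lmbrd1, −0.0573 to 0.30 for Mmachc, −0.10 to 0.13 for Mmaa, −0.000472 to 0.0133 for Tcn2 and −0.14 to 0.11 for Abcd4. In B12 MATi against SAM it ran from −0.32 to 0.0375 for Mmachc and −0.10 to 0.12 for Mmaa. In B12 against NSC it ran from −0.0304 to 0.0965 for Cd320 and −0.15 to 0.0901 for Abcd4. The causes were not tested.

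Without the replicate block 0 to 2 of all genes were called in each comparison of treatments, against 17 to 1847 with it, and with extra B12 and embryo as the only terms 5 were called in the pooled comparison, against 1672. With no filter, 1025 genes were called in B12 against NSC (370 with it), 1873 in B12 MATi against NSC (695), 452 in B12 MATi against B12 (17) and 2895 in NSC against SAM (1847). DESeq2 called 37 in B12 MATi against B12, 1166 in NSC against SAM and 2402 between embryos (3636 in edgeR). On the 4 libraries of a pair, 2020 were called in B12 MATi against NSC, 313 in B12 MATi against B12 and 3340 in NSC against SAM. With a library left out the counts over all genes ran from 818 to 2333 in the pooled comparison, 898 to 1429 in B12 against SAM, 38 to 780 in B12 against NSC, 600 to 2168 in B12 MATi against SAM, 42 to 1672 in B12 MATi against NSC, 1 to 373 in B12 MATi against B12, 605 to 2717 in NSC against SAM and 2373 to 3820 in MEF 61.5 against MEF 61.3. On plain library totals 2 of 32 mean levels moved by more than their SD. With n = 2 per treatment, the standard error of a member's log2 fold change between treatments was 0.06 to 0.12.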

Other observations

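For the cell type lists not described above, in the pooled comparison of B12 MATi and B12 with NSC and SAM, 16 of 17 macrophage markers were higher by edgeR, with a median log2 fold change of 0.82. Of 13 lysosomal genes 5 were higher, with a median of 0.14. Of 12 fibroblast markers 3 were lower (median −0.13), of 5 endothelial markers tested 1 was lower (median 0.14), and of 6 epithelial markers tested 4 were lower. The epithelial markers summed to 6.60 to 14.2 CPM in B12 MATi, 6.56 to 11.4 CPM in B12, 5.74 to 13.5 CPM in NSC and 25.2 to 52.1 CPM in SAM.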
